A study of Mus musculus with 18 samples.

Results

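The proteasome genes of mouse G1E-ER4 cells did not move as a block while the cells differentiated. By 30 h in estradiol, 8 of 14 constitutive core subunits and all 4 core assembly chaperones that were measured had fallen. Of 17 cap subunits 7 had risen, 3 of the 6 ATPases among them, and 6 had fallen. The core regulators Psmf1 and Psme4 and the cap chaperone Psmd9 had risen, while the activator Psme3 and the cap chaperone Psmd5 had fallen. Of all tested genes, 33.0% were called lower and 36.6% higher. The counts depend on how the arrays are scaled. With arrays set to equal hybridisation controls, 2 of the 14 core subunits and 3 of the 4 core chaperones were lower. Of the cap subunits, 5 were then higher, 1 of the 6 ATPases among them, and 2 lower. The shares of all tested genes above belong to the deposited scale only. The genes were taken by symbol: each gene of the array annotation whose symbol begins with Psm, then a letter from a to g, then a number, with a probe set assigned to 1 gene. The rule found 49 of 18194 genes, on 103 probe sets. Of these, 47 encode proteasome subunits, activators, an inhibitor or assembly factors, and the other 2, Psmc3ip, a recombination factor, and Psme3ip1, a partner of an activator, are proteasome genes by symbol only and were kept out of every count. Psme2 and Psme2b share 1 probe set, so neither has a value of its own. Psma8 and Psmb11, the variant subunits of testis and thymus, had mean log2 levels of 2.40 and 2.64 and did not pass the filter on low values, which left 45 proteasome genes tested.

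G1E-ER4 is a clonal line derived from mouse embryonic stem cells in which the gene for the erythroid transcription factor GATA-1 is disrupted. It carries GATA-1 fused to the ligand-binding domain of the estrogen receptor, so every group, the 0 h group included, has the same genotype, and estradiol activates the fusion. Total RNA was measured on 18 Affymetrix arrays, 3 for each of 6 groups: cells before estradiol (0 h) and cells after 3, 7, 14, 21 or 30 h in 20 nM estradiol. Untreated cells of matching hours were not analysed here, so time in culture and estradiol cannot be told apart.

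The proteasome is the main protease for proteins tagged with ubiquitin. Its barrel-shaped core is made of outer rings of alpha subunits, which form the gate, and inner rings of beta subunits, some of which cut the substrate. A cap (the regulatory particle) recognises ubiquitin, removes it and threads the substrate into the core, through a base that holds a ring of ATPases and a lid that holds the deubiquitinase. Other activators can replace the cap, inducible beta subunits can replace the catalytic ones to form the immunoproteasome, and dedicated chaperones build the core and the cap. Red cell precursors remove most of their organelles and many proteins as they mature, and the ubiquitin-proteasome system takes part in that remodelling.

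The arrays carried the defining markers of the labelled cell type. Of 9 erythroid markers, 7 lay above the 40th percentile of their array on all 18 arrays. Gata1 is among the 7, and whether its probe set reads the fusion or the disrupted gene was not tested. The mean log2 level of Alas2, the heme synthesis enzyme of red cells, went from 5.85 at 0 h to 12.3 at 30 h, and that of the progenitor receptor Kit from 10.1 to 5.28. Hbb-b1 had no single-gene probe set and the Hba-a1 probe set was above the 40th percentile on 0 arrays. Of 20 markers of other cell types, 7 were above it on 0 arrays (Cd3e, Cd3d, Mpo, Elane, Itgam, Gp1bb and Fcer1a), 6 on all 18 (Csf1r and Cd68 of macrophages, Pf4, Itga2b and Gp9 of megakaryocytes and Col1a1 of fibroblasts) and 7 on some, Cd79a on 16. Several moved with time: between 0 h and 30 h the mean level of Pf4 went from 6.93 to 4.59, of Cd68 from 5.55 to 4.76, of Csf1r from 3.48 to 4.12 and of Gp9 from 6.08 to 6.74. The mast cell markers Cpa3 and Ms4a2 went from 8.08 and 5.57 to 2.66 and 2.14. Array medians lay between 4.04 and 4.09. The gap between 3′ and 5′ control probe sets, a sign of RNA integrity and labelling, went from 1.89 to 2.20 for Actb, 1.13 to 1.52 for Gapdh and 1.79 to 2.41 for Tfrc between 0 h and 30 h, and the part of these shifts and of the markers of other cell types in the results was not tested. In bulk samples, fewer cells of a type and less RNA per cell cannot be told apart. A change below is a difference of mean log2 levels, so that 1 stands for a doubling, with its standard error (SE) and the adjusted p from limma over 12720 tested genes; n = 3 arrays per time throughout.

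Of the 45 proteasome genes, 34 changed over time in the limma F test, against 74.3% of all tested genes. At 30 h against 0 h, 11 were called higher (24.4%) and 22 lower (48.9%) at an adjusted p under 0.05, where the background was 36.6% higher and 33.0% lower. The median change of the proteasome genes was -0.16, beside 0.09 for all tested genes, and the median size of change without regard to sign was 0.44 beside 0.46. The 30 h arrays lay wholly above the 0 h arrays in 11 members (background 37.7%) and wholly below in 25 (background 34.6%). A change of 2-fold or more was called higher for 3 members (6.67%; background 9.16%) and lower for 5 (11.1%; background 13.1%). The 3 were Psmd9, Psme4 and Psmf1, and the 5 were Psmb10, Psmb9, Psmd7, Psmg1 and Psmg4.

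**Figure D1:**
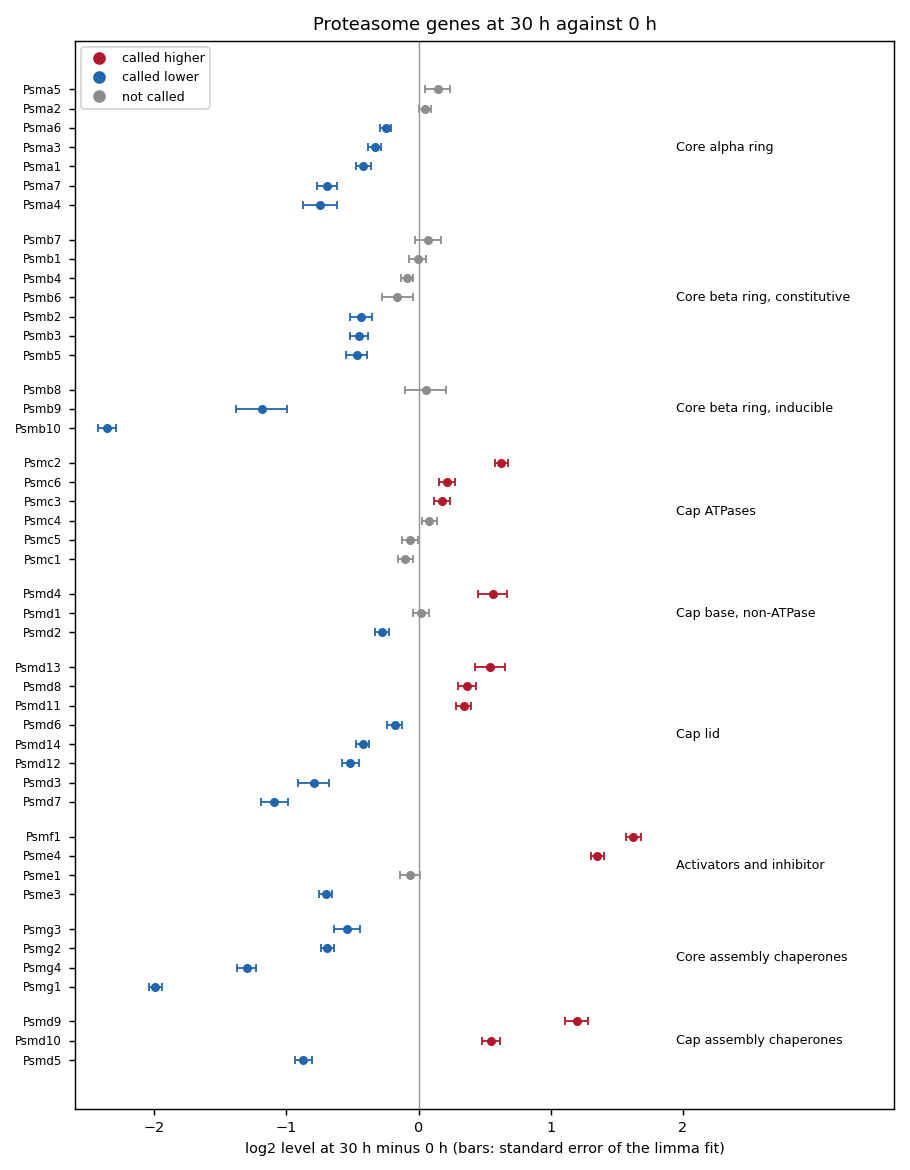
Change in log2 level at 30 h against 0 h for the 45 tested proteasome genes, grouped by role; points are differences of means of 3 arrays, bars are 1 standard error of the limma fit, and colour marks the call at an adjusted p under 0.05. In the constitutive core 8 of 14 genes are called lower and the other 6 are not called, all 4 core chaperones are called lower, and the base, the lid and the cap chaperones hold calls in both directions while the 6 ATPases hold 3 calls, all higher.

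Promoter sequences were read for the 39 genes with an entry in the RefSeq promoter table (GRCm38.p6), which gives 41 windows of 300 bases, 250 before and 50 after a transcript start. The upstream 250 bases of the 3 strongest risers and the 2 strongest fallers are shown 5′ to 3′ on the gene's strand, with matches to 4 searched motifs in capitals: AGATAA (bound by GATA factors), the antioxidant response element (TGA and GCA with any 4 bases between them, bound by Nfe2l1 and Nfe2l2 with small Maf proteins), CCAAT (NF-Y) and GGCGGG (the GC box). Both strands were searched, so a reverse complement such as TTATCT or CCCGCC also counts, and no match of one motif overlapped a match of another in these windows.
Psmf1, chr2:151741311-151741560, minus strand: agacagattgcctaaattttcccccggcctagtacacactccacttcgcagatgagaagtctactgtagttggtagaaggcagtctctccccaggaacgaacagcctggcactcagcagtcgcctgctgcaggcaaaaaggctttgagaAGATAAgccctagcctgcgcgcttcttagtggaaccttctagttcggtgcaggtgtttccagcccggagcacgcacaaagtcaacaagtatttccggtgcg
Psme4, chr11:30771525-30771774, plus strand: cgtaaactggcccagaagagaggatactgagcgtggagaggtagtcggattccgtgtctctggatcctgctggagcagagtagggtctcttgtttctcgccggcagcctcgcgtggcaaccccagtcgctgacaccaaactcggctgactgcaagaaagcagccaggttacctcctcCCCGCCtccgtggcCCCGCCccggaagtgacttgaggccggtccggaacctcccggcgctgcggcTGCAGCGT
Psmd9, chr5:123227940-123228189, plus strand: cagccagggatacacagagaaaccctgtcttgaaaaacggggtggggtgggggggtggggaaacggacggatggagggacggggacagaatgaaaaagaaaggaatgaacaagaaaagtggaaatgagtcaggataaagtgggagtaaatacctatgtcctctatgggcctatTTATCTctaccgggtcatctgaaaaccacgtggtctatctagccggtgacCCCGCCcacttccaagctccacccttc
Psmb10, chr8:105938393-105938642, minus strand: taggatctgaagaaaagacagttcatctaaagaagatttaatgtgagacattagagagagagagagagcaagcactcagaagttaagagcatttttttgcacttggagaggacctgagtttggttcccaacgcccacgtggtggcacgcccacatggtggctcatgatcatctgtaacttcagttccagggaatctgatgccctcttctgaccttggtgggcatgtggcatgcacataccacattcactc
Psmg1, chr16:95990961-95991210, minus strand: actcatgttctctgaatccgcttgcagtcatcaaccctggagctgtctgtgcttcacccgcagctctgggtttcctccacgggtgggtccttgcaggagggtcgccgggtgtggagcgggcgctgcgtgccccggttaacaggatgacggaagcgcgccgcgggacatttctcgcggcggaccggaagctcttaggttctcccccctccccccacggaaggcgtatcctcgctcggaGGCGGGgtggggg
AGATAA was in 3 of the 41 windows (7.32%), beside 11.2% of all 32851 windows. The 3 genes were Psmf1, where the match begins 101 bases before the start, Psmd9, 77 bases before, and Psmc6, 39 bases after. All 3 were called higher at 30 h, beside 36.6% of all tested genes, a description of 3 genes picked out after their values were seen. Psmc6 changed by 0.21 and was not called with equal hybridisation controls (adjusted p = 0.0599, limma). The antioxidant response element was in 5 windows (12.2%; all windows 13.0%), among them that of Psme4, where it begins 8 bases before the start and runs across it, so that only its upstream part is printed. CCAAT was in 14 windows (34.1%; all windows 37.4%) and GGCGGG in 28 (68.3%; all windows 35.3%). The Psmb10 window held no match to any of the 4 motifs and that of Psmg1 held a GC box 13 bases before the start. A match is a description of letters, not a bound site.

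The alpha ring, the gate of the core, fell late and unevenly. Of 7 alpha subunits, 5 were lower at 30 h (Psma1, Psma3, Psma4, Psma6 and Psma7), with a median change of -0.33 and a range from -0.74 to 0.15, and limma called 0 higher (0 also at an unadjusted p under 0.05), where 33.0% of all tested genes were lower and 36.6% higher. Psma4 had the largest fall: its log2 levels were 10.54, 10.54 and 10.27 at 0 h and 9.65, 9.81 and 9.66 at 30 h. The 2 groups of arrays did not overlap, and the change was -0.74 (SE 0.129, adjusted p = 8.44e-05, limma), 1.67-fold lower. Psma7 fell by almost as much, -0.69, and Psma6 by least, -0.25. Other probe sets of Psma6 gave -0.40, called lower, and 0.22 and 0.01, not called. With equal hybridisation controls only Psma4 and Psma7 of the alpha ring were called lower. Psma5 lay at the other end, with levels of 11.29, 11.26 and 11.42 at 0 h and 11.43, 11.57 and 11.40 at 30 h. Its groups overlapped and its change of 0.15 (SE 0.094, adjusted p = 0.177, limma) was not called. The other 2 tested probe sets of Psma5 went opposite ways, one called lower at -0.29 and one called higher at 0.63, so its direction rests on the choice of probe set. Psma2 changed by 0.05 and was not called at any time.

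The constitutive beta ring holds the 3 subunits that cut: Psmb5 with chymotrypsin-like, Psmb6 with caspase-like and Psmb7 with trypsin-like activity. Of its 7 genes, 3 fell by 30 h (Psmb2, Psmb3 and Psmb5, at -0.44, -0.45 and -0.47) and limma called 0 higher (0 also at an unadjusted p under 0.05), with a median of -0.16. A share of 3 in 7 is near the background of 33.0%, and with equal hybridisation controls none of the 3 was called. Psmb5 had log2 levels of 11.58, 11.54 and 11.39 at 0 h and 11.04, 11.09 and 10.98 at 30 h. All 3 of its 30 h arrays were below all 3 of its 0 h arrays (change -0.47, SE 0.082, adjusted p = 9.51e-05, limma), 1.38-fold lower. Psmb6 had 11.24, 11.06 and 11.07 at 0 h and 10.90, 11.04 and 10.94 at 30 h. These arrays came close without overlapping, and the change of -0.16 (SE 0.118, adjusted p = 0.234, limma) was not called. Psmb7 had 11.26, 11.34 and 11.47 at 0 h and 11.44, 11.47 and 11.38 at 30 h, groups that overlapped, with a change of 0.07 (SE 0.097, adjusted p = 0.521, limma). The catalytic genes thus gave 1 called fall and 2 changes that missed the threshold. Psmb1 and Psmb4, structural members of the ring, changed by -0.01 and -0.09 and were not called. The other 2 probe sets of Psmb1 were called higher, at 0.35 and 0.54, and that of Psmb4 lower, at -0.26. For these 2 genes, and for the count of 0 higher in the ring, the result thus rests on the choice of probe set.

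The inducible beta subunits, which replace the catalytic ones in the immunoproteasome and are best known from interferon-treated and immune cells, went their own ways. Psmb10, which takes the place of Psmb7, had the deepest fall of any proteasome gene, Psmb9, which replaces Psmb6, also fell, and Psmb8, which replaces Psmb5, was dim throughout. Psmb10 had log2 levels of 10.22, 10.11 and 10.05 at 0 h, 10.06, 9.93 and 9.93 at 3 h, 9.84, 9.80 and 9.63 at 7 h, 9.52, 9.47 and 9.62 at 14 h, 8.45, 8.50 and 8.55 at 21 h and 7.75, 7.77 and 7.78 at 30 h. The arrays of 3 h overlapped those of 0 h, and from 7 h on the arrays of each time lay below those of the time before. The change at 30 h was -2.36 (SE 0.067, adjusted p = 4.44e-14, limma), 5.13-fold lower. Its changes against 0 h were -0.15 at 3 h (adjusted p = 0.117, not called), -0.37 at 7 h, -0.58 at 14 h and -1.62 at 21 h, and the largest single step, from 14 h to 21 h, was -1.04. Psmb9 had 5.08, 5.15 and 5.30 at 0 h and 4.45, 3.70 and 3.81 at 30 h. Its 30 h arrays all lay below its 0 h arrays but were spread widely (SD 0.41), and the change was -1.19 (SE 0.192, adjusted p = 4.3e-05, limma). Psmb8 had 3.84, 3.55 and 3.74 at 0 h and 3.64, 3.77 and 3.89 at 30 h, not far above the 40th percentile of the arrays (3.24 at 0 h, 3.32 at 30 h as means), with a change of 0.05 (SE 0.156, adjusted p = 0.771, limma).

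Each inducible subunit was then set against the one it replaces, as the difference of their changes at 30 h against 0 h. For Psmb10 against Psmb7 the difference was -2.43, for Psmb9 against Psmb6 it was -1.02, and for Psmb8 against Psmb5 it was 0.52. In the last pair Psmb8, which was dim, changed by 0.05 and Psmb5 by -0.47. In all 3 pairs the 30 h arrays of the difference did not overlap with the 0 h arrays. Such separation was common: among all tested genes 37.7% lay wholly higher and 34.6% wholly lower at 30 h. Those shares are for single genes, and none was counted for differences of pairs. The two-sided exact permutation p was 0.10 for each pair, the smallest that 3 arrays against 3 can give, and 0.10 after adjustment over the 3 pairs, so this design cannot pass 0.05. With 1 array left out, the differences ranged from -2.52 to -2.34, from -1.28 to -0.84 and from 0.42 to 0.60.

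**Figure D2:**
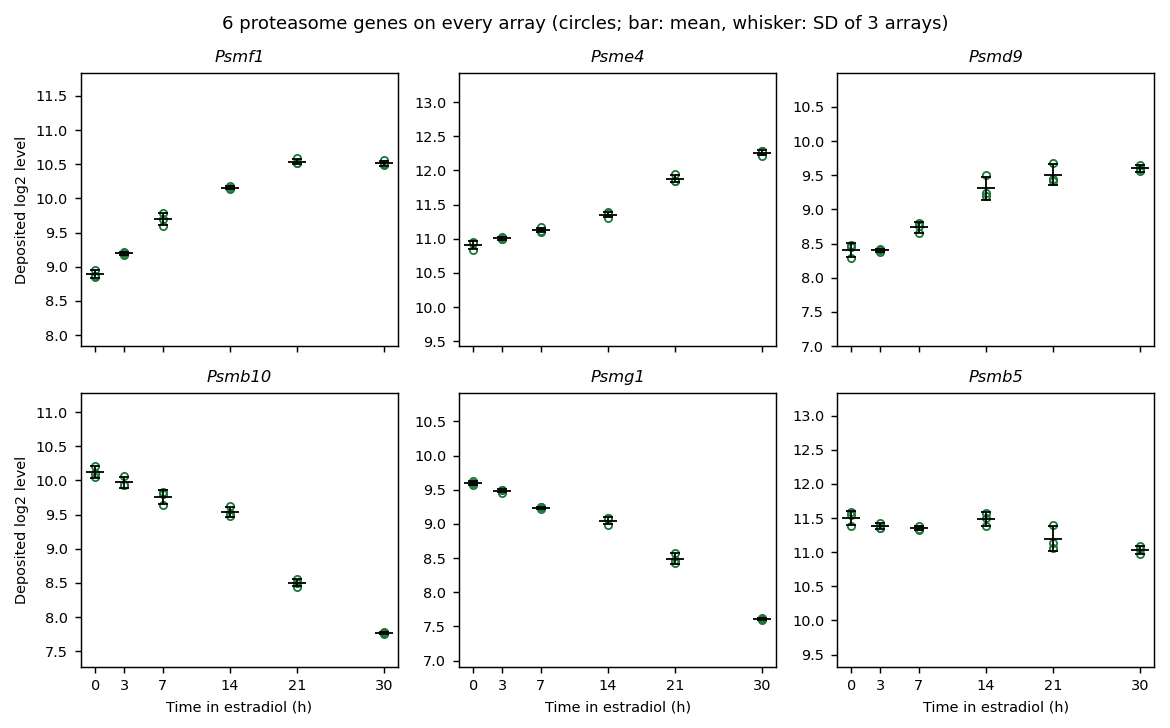
Log2 level on each of the 18 arrays against time in estradiol for 6 genes; each circle is 1 array, the bar is the mean and the whisker the SD of 3 arrays, and all panels span the same number of log2 units. Psmf1, Psme4 and Psmd9 climb from 8.89, 10.91 and 8.41 at 0 h to 10.52, 12.26 and 9.60 at 30 h, and Psmb10 and Psmg1 drop from 10.12 and 9.60 to 7.77 and 7.61.

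The ATPases of the cap base, the ring of unfolding motors, held calls in 1 direction on their brightest probe sets. Of 6, 3 were higher at 30 h (Psmc2, Psmc3 and Psmc6) and limma called 0 lower (0 also at an unadjusted p under 0.05), with a median change of 0.13 and a range from -0.10 to 0.63; the background was 36.6% higher and 33.0% lower. With equal hybridisation controls the calls of Psmc3 (0.38, adjusted p = 0.0906, limma) and Psmc6 (0.42, adjusted p = 0.0599, limma) were lost. At 21 h, 4 were higher and the median was 0.25. Psmc2 rose furthest, with log2 levels of 11.50, 11.52 and 11.61 at 0 h and 12.17, 12.17 and 12.16 at 30 h. The groups stood well apart, and the change was 0.63 (SE 0.049, adjusted p = 7.82e-09, limma), 1.54-fold higher. It was already higher at 3 h by 0.14 (adjusted p = 0.0419, limma), a call lost with quantile normalization, with equal medians and with equal hybridisation controls. Psmc3 reached 0.34 at 14 h and 21 h and came back to 0.18 at 30 h (adjusted p = 0.0173, limma), and Psmc6 was at 0.19, 0.37 and 0.21 at those times. The other 2 probe sets of Psmc6 gave changes of 1.45 and 1.72 at 30 h, far above the 0.21 of its brightest one. For Psmc4 the brightest probe set gave 0.08 and was not called, but its other one was called lower at -0.32. The single direction of the ATPase calls thus rests on the choice of probe set. Psmc1 was the lowest ATPase, with 11.32, 11.29 and 11.23 at 0 h and 11.13, 11.22 and 11.19 at 30 h. Its groups just missed overlapping, and the change of -0.10 (SE 0.058, adjusted p = 0.14, limma) was not called.

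The non-ATPase subunits of the base split. Psmd4, a ubiquitin receptor, rose: its log2 levels were 10.77, 10.44 and 10.52 at 0 h and 11.15, 11.10 and 11.16 at 30 h, without overlap. The change was 0.56 (SE 0.107, adjusted p = 0.000215, limma), 1.47-fold higher. Psmd2, a scaffold where ubiquitin shuttle proteins dock, fell a little on tight arrays, from 11.66, 11.67 and 11.65 to 11.39, 11.38 and 11.38 (change -0.28, SE 0.051, adjusted p = 0.000155, limma). Its call was lost when the probe sets of a gene were averaged (-0.13, adjusted p = 0.132, limma), but its only other probe set has a mean level of 1.99 and was above the 40th percentile on 0 arrays, so that the average is smaller by construction. Psmd1, the other large scaffold, changed by 0.02 and was not called.

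The lid held calls in both directions. Of 8 subunits, 3 rose (Psmd8, Psmd11 and Psmd13, at 0.37, 0.34 and 0.54) and 5 fell (Psmd3, Psmd6, Psmd7, Psmd12 and Psmd14, from -1.09 to -0.18), with a median of -0.30, beside a background of 36.6% higher and 33.0% lower. Psmd7, which pairs with the deubiquitinase Psmd14, had the largest fall, from 8.48, 8.46 and 8.32 at 0 h to 7.33, 7.42 and 7.24 at 30 h. The groups lay far apart (change -1.09, SE 0.104, adjusted p = 1.01e-07, limma), 2.13-fold lower, but its other 2 probe sets gave smaller changes, -0.48 and -0.17. Psmd14, the deubiquitinase itself, fell by 0.42, and Psmd3 by 0.79. The other probe set of Psmd6 gave 0.15 and was not called. With equal hybridisation controls Psmd6, Psmd12 and Psmd14 were not called. Psmd13 rose furthest, from 8.86, 8.66 and 8.67 to 9.27, 9.30 and 9.25. All 3 of its 30 h arrays were above its 0 h arrays (change 0.54, SE 0.116, adjusted p = 0.000632, limma). Psmd11 cannot be read firmly, since its 7 tested probe sets ran from -0.89 to 0.51 with calls in both directions.

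Among the activators and the inhibitor, which dock on the core in place of the cap or bind it, the members took opposite directions. Psmf1, first described as an inhibitor of the core in the test tube, had the largest rise of all proteasome genes. Its log2 levels were 8.87, 8.85 and 8.95 at 0 h, 9.20, 9.21 and 9.17 at 3 h, 9.79, 9.70 and 9.60 at 7 h, 10.14, 10.16 and 10.18 at 14 h, 10.58, 10.51 and 10.52 at 21 h and 10.49, 10.56 and 10.50 at 30 h. Each time up to 21 h stood clear of the one before it, and the level then held, with a step of -0.02 from 21 h to 30 h (adjusted p = 0.773, limma). The change at 30 h was 1.63 (SE 0.054, adjusted p = 2.76e-13, limma), 3.08-fold higher, and its other 3 probe sets gave 2.21 to 2.45. Psme4, a large single-chain activator found mainly in nuclei, rose later. It had 10.95, 10.94 and 10.84 at 0 h, 11.00, 11.03 and 10.99 at 3 h, 11.11, 11.17 and 11.11 at 7 h, 11.37, 11.31 and 11.39 at 14 h, 11.95, 11.85 and 11.85 at 21 h and 12.29, 12.22 and 12.28 at 30 h. No time overlapped with the one before, and the change at 30 h was 1.35 (SE 0.051, adjusted p = 1.15e-12, limma), 2.55-fold higher; its other 5 probe sets gave 1.66 to 2.13.

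Psme3, the nuclear ring activator, fell from 10.76, 10.71 and 10.71 at 0 h to 9.99, 10.06 and 10.01 at 30 h. The groups did not overlap (change -0.70, SE 0.048, adjusted p = 1.8e-09, limma), 1.63-fold lower. A second tested probe set fell by 0.29, and the call was lost when all probe sets of the gene were averaged (-0.18, adjusted p = 0.0629, limma), an average that takes in a dim probe set with a mean level of 2.87, above the 40th percentile on 1 array. Psme1, part of the interferon-inducible ring activator, was lower by 0.24 at 21 h (adjusted p = 0.0105, limma) and at 30 h had a change of -0.07 (adjusted p = 0.437, limma), which was not called.

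The 4 chaperones that assemble the core all fell, with a median change of -0.995. Psmg1 and Psmg2 form a pair that builds the alpha ring, and Psmg3 and Psmg4 form another pair. Psmg1 had log2 levels of 9.63, 9.58 and 9.60 at 0 h, 9.50, 9.50 and 9.46 at 3 h, 9.24, 9.22 and 9.25 at 7 h, 9.08, 8.99 and 9.08 at 14 h, 8.43, 8.47 and 8.58 at 21 h and 7.62, 7.60 and 7.61 at 30 h. Each of these sets lay below the one before, and the change at 30 h was -1.99 (SE 0.050, adjusted p = 1.12e-14, limma), 3.97-fold lower. Its partner Psmg2 had 11.43, 11.43 and 11.37 at 0 h and 10.68, 10.76 and 10.72 at 30 h, without overlap and with a smaller change of -0.69 (SE 0.049, adjusted p = 2.85e-09, limma). Psmg4 held near its starting level until 14 h (-0.13, adjusted p = 0.146, limma) and then fell. It had 8.22, 8.20 and 8.21 at 0 h and 6.96, 6.81 and 6.96 at 30 h, a change of -1.30 (SE 0.072, adjusted p = 1.11e-10, limma), and its other probe set gave -0.54. Psmg3 rose first: it had 10.40, 10.40 and 10.30 at 0 h, 10.79, 10.62 and 10.70 at 14 h and 9.75, 9.93 and 9.78 at 30 h. The 14 h arrays were all above and the 30 h arrays all below those of 0 h, with changes of 0.34 (adjusted p = 0.0107, limma) and -0.54 (adjusted p = 0.000156, limma). The other probe set of Psmg3 gave -0.04 at 30 h.

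The 3 chaperones of the cap base, each of which binds particular ATPases during assembly, did not move together. Psmd9 had 8.48, 8.45 and 8.28 at 0 h, 8.41, 8.41 and 8.37 at 3 h, 8.80, 8.75 and 8.65 at 7 h, 9.19, 9.24 and 9.50 at 14 h, 9.41, 9.44 and 9.68 at 21 h and 9.59, 9.65 and 9.56 at 30 h. The arrays from 7 h on were all above those of 0 h and 3 h, and the change at 30 h was 1.20 (SE 0.088, adjusted p = 3.91e-09, limma), 2.29-fold higher; its other 2 probe sets gave 0.65 and 0.79. Psmd10, also known as the oncoprotein gankyrin, rose late, from 8.36, 8.44 and 8.33 at 0 h to 8.89, 8.98 and 8.91 at 30 h (change 0.55, SE 0.068, adjusted p = 2.14e-06, limma). Psmd5 was the only proteasome gene called lower at 3 h. Its levels were 10.53, 10.50 and 10.40 at 0 h, 10.04, 9.96 and 9.99 at 3 h, 9.85, 9.92 and 10.04 at 14 h, 9.86, 9.85 and 9.69 at 21 h and 9.59, 9.58 and 9.65 at 30 h. The drop at 3 h was clear of the 0 h arrays (-0.48, SE 0.064, adjusted p = 4.45e-05, limma), levels at 7 h and 14 h stayed near it at -0.44 and -0.54, and the change at 30 h was -0.87 (adjusted p = 4.14e-09, limma).

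Calls against 0 h came at different times in different roles, and no test compared the roles. At 3 h only 3 members were called against 0 h, 2 higher (Psmc2 and Psmf1; background 11.2%) and 1 lower (Psmd5; background 14.7%), and at 7 h 4 were higher (background 15.3%) and 7 lower (background 16.3%). At 14 h, 10 were higher (background 22.2%) and 6 lower (background 22.7%). The 6 genes that were called for the first time at 14 h all rose: Psmc3, Psmc6, Psmd4, Psmd8, Psmd13 and Psmg3, of which 5 are cap subunits. First calls, here and at 21 h, were not counted over all tested genes, so they have no background. At 14 h limma called 0 of the 14 constitutive core subunits higher and 0 lower (0 and 1 at an unadjusted p under 0.05), while of the 17 cap subunits 6 were higher and 1 lower.

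At 21 h, 11 members were higher (background 31.4%) and 18 lower (background 28.6%), and 14 were called for the first time, 12 of them lower. Of the 14 constitutive core subunits 7 were now lower, and of the 17 cap subunits 8 were higher and 3 lower. At 30 h the core had 8 lower with a median change of -0.29, and the cap 7 higher and 6 lower with a median of 0.02. The difference between core and cap was not tested. The mean over the time course was lowest at 30 h in 24 members and at 0 h in 6. It was highest at 0 h in 19, at 21 h in 9 and at 30 h in 9. These extremes were not counted over all tested genes, so they have no background. Against 0 h, 10 members were not called at any time: Psma2, Psma5, Psmb1, Psmb4, Psmb6, Psmb7, Psmb8, Psmc4, Psmc5 and Psmd1. That holds for the brightest probe set of each. Psma5, Psmb1, Psmb4 and Psmc4 had other probe sets that were called at 30 h.

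**Figure D3:**
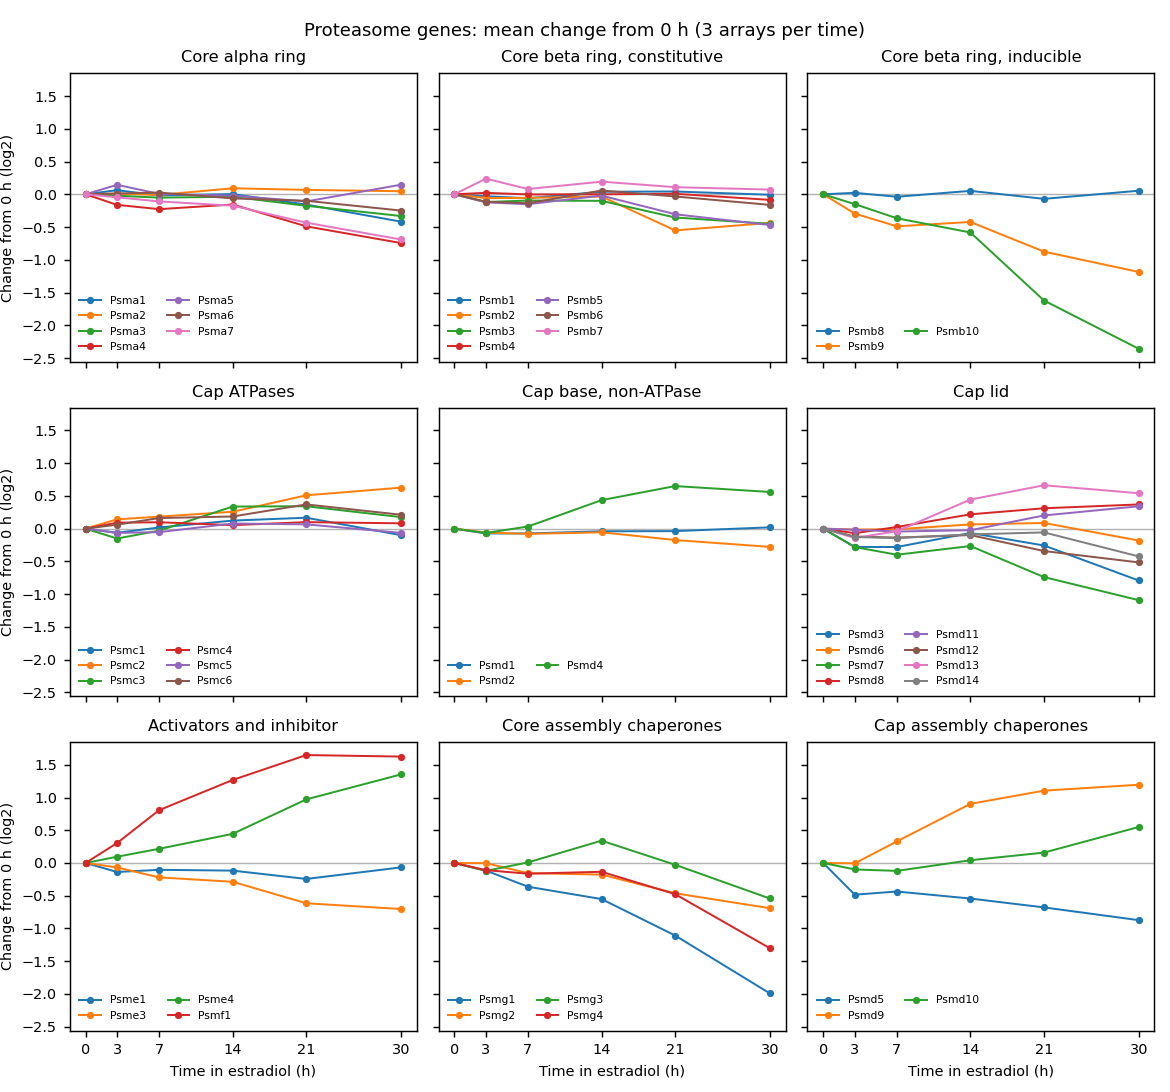
Mean log2 change from 0 h against hours in estradiol, 1 panel per role and 1 line per gene, each point the mean of 3 arrays minus the mean of the 3 arrays at 0 h. The core rings stay near 0 until 14 h and turn down at 21 h and 30 h, where the alpha ring median reaches -0.33, while Psmf1, Psme4 and Psmd9 climb to 1.63, 1.35 and 1.20.

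Step by step, most calls lower came in the last 2 steps, where the background of lower calls was also highest. The steps differ in length. From 3 h to 7 h, 2 members were higher (background 9.80%) and 3 lower (background 5.14%), and from 7 h to 14 h, 7 were higher (background 11.5%) and 2 lower (background 10.8%). From 14 h to 21 h, 5 were higher (background 15.7%) and 14 lower (background 17.5%), and from 21 h to 30 h, 3 were higher (background 18%) and 18 lower (background 22.5%). With equal hybridisation controls fewer were lower in both of these steps, as given below. All 4 core chaperones were lower in each of the last 2 steps, and Psmb10 and Psmg1 in all of the 4 steps from 3 h on. The arrays of 21 h scattered most: the median SD of a member was 0.0866 there and 0.0338 at 3 h. Replicate 1 of 0 h had the highest of its 3 values in 31 of 45 members, and replicate 3 of 7 h the lowest in 32. Such orders were not counted over all tested genes, so they have no background. Replicate 3 of 21 h likewise had the highest of its 3 values in 31 of 45 members. That array also had the smallest 3′ to 5′ gaps of its time, 1.89 for Actb beside 2.36 and 2.18 and 1.24 for Gapdh beside 1.78 and 1.52, and their part in these values was not tested. Without that array, 18 members in place of 14 were lower from 14 h to 21 h, and 21 in place of 18 at 21 h against 0 h. The counts without it are given with no share of all tested genes, so whether other genes moved alike cannot be read from them.

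How the deposited arrays were scaled is not stated, and many calls on small changes depended on the scale. When arrays were instead brought to equal means of the 18 hybridisation control probe sets, which went from 11.95 at 0 h to 11.74 at 30 h, the median change of all genes moved from 0.09 to 0.30 and that of the proteasome genes from -0.16 to 0.04. At 30 h, 9 members were then called higher and 11 lower, all of them among the 11 and 22 of the deposited scale. The background of 36.6% higher and 33.0% lower belongs to the deposited scale, so these counts have no background beside them. The constitutive core lost 6 of its 8 calls, all falls, and kept Psma4 at -0.54 and Psma7 at -0.49. The cap lost 6 of its 13 calls, the rises of Psmc3 and Psmc6 and the falls of Psmd2, Psmd6, Psmd12 and Psmd14, and the change of Psmd6 went from -0.18 to 0.021. Psmc3 and Psmc6 lay further from 0 on this scale and still missed the threshold. Psmb5 was at -0.27 (adjusted p = 0.245, limma) on that scale, and Psmg3 at -0.34 (adjusted p = 0.14, limma). Psmb10 at -2.16, Psmg1 at -1.79, Psmg4 at -1.10, Psmf1 at 1.83, Psme4 at 1.56 and Psmd9 at 1.40 were called on both scales.

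**Figure D4:**
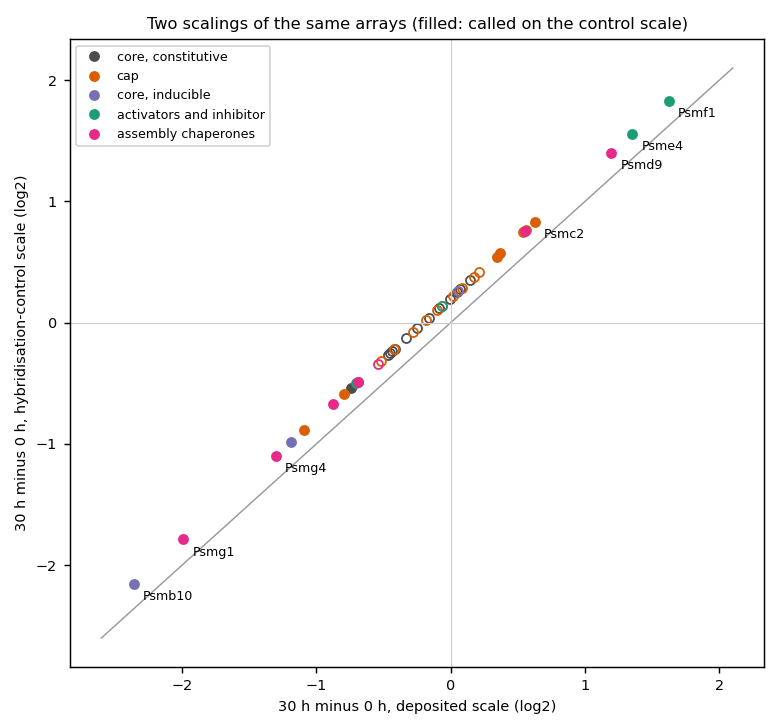
Change in log2 level at 30 h against 0 h for each of the 45 tested proteasome genes, on the deposited scale (horizontal) and after arrays were brought to equal hybridisation controls (vertical); colours mark the roles, filled points are called on the control scale and the diagonal marks equal values. All points lie above the diagonal; many small changes in either direction are not called on the control scale, and the large changes of Psmb10, Psmg1, Psmf1, Psme4 and Psmd9 are called on both scales.

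Of 41 listed genes that work with the proteasome, 31 had a single-gene probe set and were tested, and at 30 h 15 were higher and 10 lower, with a median change of 0.20, beside 36.6% higher, 33.0% lower and a median of 0.09 for all tested genes. Of 8 genes listed as regulators of proteasome genes or their processing, 6 were higher and 1 lower, with a median of 0.52, on a list chosen with earlier results known. Among the 8, Nfe2l3 and Maff were dim, with levels of 4.64, 4.36 and 4.95 and of 4.07, 3.94 and 4.22 at 30 h. Mafk, a small Maf protein that pairs with the activators Nfe2l1 and Nfe2l2 and with the erythroid factor Nfe2, had the largest change of the list, from 7.99, 7.93 and 7.86 at 0 h to 10.30, 10.26 and 10.39 at 30 h. The groups lay far apart, and the change was 2.39 (SE 0.057, adjusted p = 6.78e-15, limma), 5.25-fold higher. Its relative Mafg rose by 1.39. Nfe2l1, the factor that raises proteasome genes when the protease is inhibited, fell by 0.38 (adjusted p = 0.000238, limma), while Nfe2l2 rose by 0.35 and Ngly1, the enzyme that activates Nfe2l1, by 0.79.

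Genes for proteins that bring substrates to the proteasome went both ways. For each class count in this paragraph the background at 30 h was 36.6% higher and 33.0% lower. Of 11 shuttle and unfolding factors, 4 rose and 4 fell: the shuttles Ubqln4 and Rad23b fell by 1.54 and 1.36, and Zfand5, which stimulates the proteasome, rose by 0.89. Uba6, a ubiquitin-activating enzyme, fell from 10.22, 10.38 and 10.29 at 0 h to 8.66, 8.78 and 8.76 at 30 h, 2.95-fold lower without overlap (adjusted p = 4.81e-12, limma). Of 7 cap partners and maturation factors 3 rose and 2 fell, among them Pomp, which matures the beta ring, at -0.20, and the cap deubiquitinase Uchl5, at -0.63. Of 4 genes of antigen presentation, Tap1, the peptide transporter gene that neighbours Psmb9 in the genome, fell by 0.96 and the interferon-responsive factor Irf1 by 0.72, and Tap2 and B2m rose by 0.27 and 0.44.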

How the data were processed

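The deposited table holds log2 expression values of 45101 probe sets on the 18 arrays, as the authors made them. Base 2 was inferred from the range of the values; how probes were summarised and arrays scaled, and when they were scanned, is not stated in the labels. An array has no depth, so the number of arrays limits the precision. Per the labels the 3 arrays of a time are biological replicates, but separate cultures are not named, and the p-values cover only the spread among these arrays, possibly technical.

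Of the probe sets, 34958 list 1 gene, 932 several and 9211 none. Only the first were used, and for each gene the probe set with the highest mean over all arrays. Genes exceeding the 40th percentile of 3 or more arrays were tested (12720 of 18194). All arrays were fitted with limma 3.58.1 in R 4.3.3, 1 mean per time and 12 residual degrees of freedom, with two-sided tests and Benjamini-Hochberg adjustment over all tested genes. The code was tested on simulated data. Pairs of catalytic subunits were compared by an exact permutation test.

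Members, roles and partner lists were chosen with earlier results of these data known. Values on the arrays of at least 0 h and 30 h are given for the 6 catalytic or replacing subunits, the largest rise and fall of each role at 30 h, changes of 2-fold or more, and called assembly chaperones, and the 5 largest called partners are named; others named were picked after their values were seen. Alternatives were the scaling, the filter, the choice of probe set, the variance model, a replicate block, the arrays in the fit and each array left out.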

Additional observations from a re-analysis of the deposited data

How the results depend on the processing

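At 30 h against 0 h the counts of 11 higher and 22 lower proteasome genes stayed within 1.5 times under every alternative but equal hybridisation controls, which gave 11 lower. With quantile normalization they were 11 and 22, beside 4838 higher and 4065 lower of 12721 tested genes. Arrays shifted to equal medians gave 11 and 22, beside 4755 and 4128 of 12720. All other counts under the alternatives are given without the share of all tested genes called under each. With those controls the counts higher and lower were 0 and 0 at 3 h (limma; 1 and 0 at an unadjusted p under 0.05), 1 and 0 at 7 h (5 lower unadjusted), 0 lower at 14 h (0 unadjusted), 6 and 7 at 21 h, 0 and 0 from 3 h to 7 h (0 and 1 unadjusted), 0 lower from 7 h to 14 h (0 unadjusted), 0 and 8 from 14 h to 21 h (0 higher unadjusted) and 3 lower from 21 h to 30 h. The control means scattered from 11.57 to 12.23 between arrays, wider than any shift between times. The 3 h count higher was 1 with quantile normalization, with equal medians and with no filter. The 3 h count lower was 4 with the 60th-percentile filter, 3 with the mean of probe sets, 4 with only the arrays compared and 5 with trended and robust variance. No filter left 1 lower from 3 h to 7 h and 1 lower from 7 h to 14 h. From 14 h to 21 h the mean of probe sets gave 8 lower, and only the arrays compared gave 2 higher and 7 lower; that setting also gave 0 lower from 7 h to 14 h (limma; 2 unadjusted) and 10 lower from 21 h to 30 h. The 21 h to 30 h count higher was 6 with the 60th-percentile filter and with trended and robust variance. Same-numbered arrays did not deviate together (median correlation 0.03, from -0.17 to 0.19; over 0.1 in 7 of 45 pairs), and a replicate block gave 1 higher at 3 h and 1 lower from 3 h to 7 h, with the other counts within 1.5 times.

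With 1 array left out, the 3 h count higher ranged from 1 to 2 (1 without 0 h replicate 1 or 2, or any 3 h array). From 3 h to 7 h the count higher ranged from 1 to 2 (1 without 3 h replicate 3, or 7 h replicate 1 or 2) and the count lower from 1 to 2 (1 without any 3 h array, or 7 h replicate 2 or 3). From 7 h to 14 h the count lower ranged from 0 to 2 (1 without 7 h replicate 1 or 2, or 14 h replicate 1; 0 without 14 h replicate 2, limma, with 2 unadjusted). Of the named genes' values, 370 kept direction and side of the threshold, 5 changed sign, 5 lost their call and 1 gained it (Psma5, 0.16, mean of probe sets). The changes of sign were in genes without a call: Psmb6 at 0.042 and Psmc1 at 0.10 with equal controls, Psmc1 at 0.039 with the mean of probe sets, and Psmb8, which ranged from -0.025 (without 0 h replicate 2) to 0.118 (without 0 h replicate 1) and was also below 0 without 30 h replicate 3. The cause was not tested. Dim genes such as Psmb8 and Psmb9 have levels close to the background of the arrays.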

Other observations

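Probe sets of a gene differed in the size of the change and, in some genes, in its sign. Of 23 proteasome genes with more than 1 tested probe set, 14 had all of them called the same way at 30 h against 0 h, and in 8 of those 14 the brightest probe set, which the values above use, gave the smallest change. Psmb3 gave -0.45 on its brightest probe set and -0.88 on the other. Psma5 and Psmd11 were the 2 genes with probe sets called in opposite directions. The other 7 of the 23 had called probe sets beside ones that were not called. Psma6, Psmb1, Psmc4 and Psmd6, among those 7, had changes of both signs.

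The 2 genes that carry the symbol without being subunits also fell: Psmc3ip by 0.47 and Psme3ip1 by 0.41 at 30 h against 0 h (adjusted p = 1.42e-05 and 4.59e-05, limma).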
